A study of Mus musculus with 3 samples.

Results

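The strong solitary SOX2 sites of the mouse gastric antrum that had no peak after deletion of Sox2 are described here. They are 786 of the 7132 autosomal peaks in the wild-type SOX2 chromatin immunoprecipitation sequencing (ChIP-seq) list, or 11% (exact Clopper-Pearson 95% interval 10.3 to 11.8), among 8100 peaks in the wild-type and knockout lists together. The peaks were chosen by 3 measured values: a wild-type score of at least 150, no knockout peak with an edge within 1 kb, and no other wild-type peak with an edge within 5 kb, on chromosomes 1 to 19. The score is the value given to each peak by the authors' peak caller. Its scale is not named in the sources used here, so it only ranks peaks within a list. Such a peak is called lost below in the sense that the knockout list holds none nearby. Because the 3 values define the set, the scores, the absence of a knockout peak and the isolation of these sites are descriptions and support nothing.

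SOX2 is a transcription factor with a high-mobility-group domain that binds a short DNA element in the minor groove and bends the helix. It commonly acts with a partner factor bound beside it, and many of its sites lie in enhancers away from gene starts. In the stomach it marks epithelial progenitor cells and is part of the foregut programme that separates stomach from intestine.

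Chromatin came from isolated antral glands of mice on a mixed C57BL/6 x 129 background, and both genotypes carried loxP-flanked Sox2 alleles (Sox2 fl/fl). The knockout also carried a tamoxifen-inducible Cre (Rosa26CreER), which is driven from a broadly active locus and acts in each cell separately, while the wild type had no Cre (Rosa26WT). Tamoxifen was given to both at 8 weeks, and the stomachs were collected 2 weeks later. There was 1 SOX2 ChIP library per genotype, with the same goat antibody, and 1 wild-type input, which was not analysed here. In bulk chromatin, fewer cells with a bound site and less binding per cell cannot be told apart. Read depth is unknown, no replicate gives an error, and no test between genotypes was possible. The intervals below cover counting over peaks of 1 library only.

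The set was narrowed from the strong peaks in 2 steps. Of the autosomal wild-type peaks, 1478 had a score of at least 150. Of these, 1039 had no knockout peak within 1 kb, a share of 70.3% against 91.2% of all autosomal wild-type peaks, and 439 had one. The isolation condition then removed 253 lost peaks that had another wild-type peak within 5 kb and left the 786. The share of lost strong peaks that were solitary was 75.6% (72.9 to 78.2), and the share of strong peaks with a knockout peak that were solitary was 77.4% (73.2 to 81.3), so the intervals overlapped. The highest-scoring peak removed for a neighbour was chr11:63337662-63338396, with a score of 722.26 and another wild-type peak 0.025 kb away. The next was chr1:135968096-135968703, with a score of 543.04 and a neighbour at 1.04 kb. Positions are 1-based on the mouse build mm9.

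Most of the 786 sites lay low in the range of strong scores. The median score was 197.26 (order-statistic 95% interval 193.06 to 202.36), the middle 50% lay between 170.58 and 250.39, and the highest score was 811.47. Scores reached 200 or more at 380 sites, 300 or more at 102, 400 or more at 37 and 500 or more at 8. At the limit the list was continuous. The lowest scores inside were 150.14 for chr18:70249712-70250070, 150.3 for chr3:9497358-9497732, 150.31 for chr11:68792978-68793375, 150.39 for chr18:55152087-55152383 and 150.43 for chr19:23875542-23876020. The peaks just outside that met the other conditions scored 149.97 for chr2:25122353-25122808, 149.91 for chr5:140297999-140298427, 149.86 for chr19:46719621-46719980, 149.76 for chr1:92074537-92074992 and 149.63 for chr15:101837554-101837892. Below the limit there were 4467 further solitary lost peaks, with a median score of 70.86.

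The share of strong peaks that belonged to the set fell with the wild-type score. It was 65.6% (61.7 to 69.3) for scores from 150 to below 200, 61.4% (55.6 to 67.0) from 200 to below 250, 38.2% (30.9 to 46.0) from 300 to below 400 and 18.6% (13.4 to 24.7) at 400 or more. In the last band 37 peaks were solitary and lost, 10 were lost with a neighbour and 152 had a knockout peak. Of the 50 autosomal peaks with the highest scores 2 belonged to the set, of the top 100 there were 7, of the top 250 there were 54 and of the top 1000 there were 467. The sites at the top of the set were therefore a minority among wild-type peaks of their own rank. At strong peaks that did have a knockout peak, the median knockout score was 61.32 for wild-type scores from 150 to below 200 and 106.63 for wild-type scores of 400 or more. The lowest score in the knockout list was 50.02. The list gives no value for a site without a peak, so signal there was not measured.

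**Figure D1:**
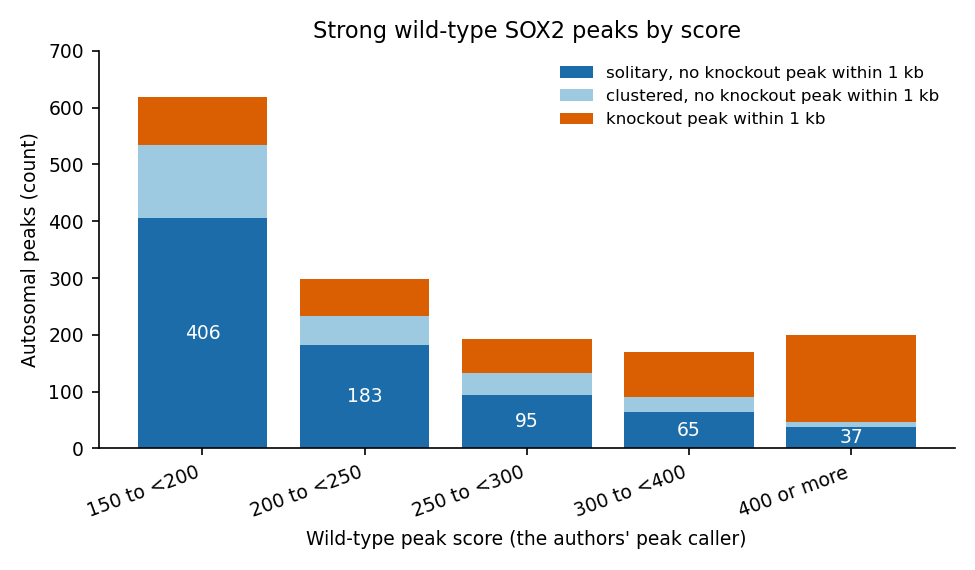
Number of autosomal wild-type SOX2 peaks (vertical axis, count) in bands of wild-type peak score (horizontal axis, the authors' score), split into solitary lost peaks, lost peaks with a wild-type neighbour within 5 kb, and peaks with a knockout peak within 1 kb. Solitary lost peaks number 406 in the lowest band and 37 at 400 or more, where 152 peaks have a knockout peak.

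The 15 highest-scoring sites lay on 11 chromosomes, with scores from 476.54 to 811.47. Their widths were between 495 and 1165 bp with a median of 591 bp. Of the 15, 13 scored higher than their nearest wild-type neighbour, which their choice by score favours. Their surroundings varied.

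At 4 of the 15 no other wild-type peak lay within 100 kb. The first, chr16:52438212-52438719, had the highest score of the set at 811.47, ranked 30 in the whole wild-type list and was 508 bp wide. Its nearest wild-type peak, 101 kb away, scored 80.02. The site chr13:114143689-114144573 scored 649.54 over 885 bp, and its nearest wild-type peak was 254 kb away with a score of 60.54. At both, the nearest wild-type peak was weak. Peaks farther away were not all weak. Farther from the site on chromosome 16 than its nearest peak lay chr16:52689586-52690051, with a wild-type score of 262.79 and a knockout peak within 1 kb. The remaining pair was chr1:36976820-36977542, with a score of 584.57 over 723 bp, and chr18:65230718-65231606, with a score of 574.85 over 889 bp. Their nearest wild-type peaks were 105 kb and 110 kb away and scored 63.75 and 70.28. The nearest knockout peak was 15075.9 kb from the site on chromosome 1 and 885 kb from the one on chromosome 18.

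At 4 others a wild-type peak lay within 15 kb, past the 5 kb limit. The site chr13:102606609-102607199 scored 679.05 and had a peak of score 55.79 at 5.63 kb. It also had the most crowded surroundings of the 15, with 8 wild-type peaks within 100 kb. The site chr12:80626847-80627411 scored 478.99 beside a peak of 98.23 at 5.68 kb, and chr14:118978218-118978877 scored 519.1 beside one of 161.3 at 7.95 kb. The site on chromosome 14 had a knockout peak of score 171.92 at 12.4 kb, the closest knockout peak to any of the 15. On the side away from its nearest wild-type peak, that site also had a stronger one within 15 kb that was still called in the knockout. This was chr14:118965363-118965989, with a wild-type score of 870.51. The site chr11:20979336-20980500 scored 495.01, had a peak of 58.51 at 10.5 kb and was the widest of the whole set at 1165 bp. Of these, the sites on chromosomes 12, 13 and 14 would not count as solitary with a limit of 10 kb.

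In 3 of the 15 the nearest wild-type peak was still called in the knockout. The site chr12:31941298-31941857 scored 723.22, and the peak 36.5 kb away had a wild-type score of 322.28 and a knockout score of 62.29. Here the stronger of the neighbours was the one without a knockout peak. At the other sites the neighbour was the stronger. The site chr2:60492844-60493403 scored 488.85 with a neighbour of 667.34 at 48 kb, and chr2:3576650-3577144 scored 478.32 with a neighbour of 868.84 at 88.9 kb. The last 4 of the 15 had weaker, lost neighbours. They were chr2:157585358-157585892 with a score of 596.95, chr4:80595457-80596066 with 483.87, chr9:61656292-61656903 with 479.66 and chr10:24912441-24912984 with 476.54. Their neighbours lay 22.1, 50, 31.3 and 73.7 kb away and scored 59.49, 142.72, 81.05 and 149.31.

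Width was not used in choosing the sites, though it tended to be larger at higher scores. The median width was 460 bp (452 to 467), the middle 50% lay between 404 and 530 bp, and 10 sites were narrower than 300 bp. Over the 786 sites, which share 1 library, Spearman's rho between score and width was 0.44. The median width rose from 426 bp (415 to 439) for scores from 150 to below 200 to 472 bp (454 to 498) from 200 to below 250 and 565 bp (542 to 612) at 400 or more. Weaker solitary lost peaks had a median of 291 bp (287 to 294). After chr11:20979336-20980500 the widest sites were chr3:75756298-75757201 and chr9:110586548-110587451 at 904 bp each, with scores of 421.19 and 432.8, then chr6:108654310-108655200 at 891 bp with a score of 279.94 and the site on chromosome 18 named above at 889 bp. Only 1 site reached 1 kb, and none lay within 50 kb of the regions where both lists had overlapping peaks of at least 1 kb. The share of all wild-type peaks near such regions was not taken, so this absence is not a trait of the set. The narrowest, named after its value was seen, was chr6:83086825-83087074 at 250 bp with a score of 155.13.

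Compared with solitary strong peaks that had a knockout peak, the lost ones were narrower as a whole. Within each band of score from 200 up, the lost ones had the larger median width. Median width was 494 bp (482 to 510) and median score 324.61 over the 340 that had one. For scores from 150 to below 200 their median width was 430 bp (410 to 448) over 64 peaks, beside 426 bp for the 406 lost sites. From 200 to below 250 it was 454 bp (418 to 482) over 44 peaks, beside 472 bp. From 250 to below 300 it was 466 bp (438 to 509) over 43 peaks, beside 485 bp (467 to 507). From 300 to below 400 it was 501 bp (479 to 520) over 68 peaks, beside 543 bp (511 to 564) over 65 lost sites. At 400 or more it was 551 bp (535 to 564) over 121 peaks, beside 565 bp. The intervals overlapped in each of these bands, which is not a test of a difference. Among strong peaks with a wild-type neighbour within 5 kb the order was mixed. Lost ones had the smaller median from 200 to below 250 (459 against 475 bp) and from 250 to below 300 (482 against 504 bp). They had the larger one from 300 to below 400 (541 against 513 bp) and at 400 or more (616 against 577 bp). Peaks of 1 library are not replicates, and a difference in width at a given score was not tested.

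**Figure D2:**
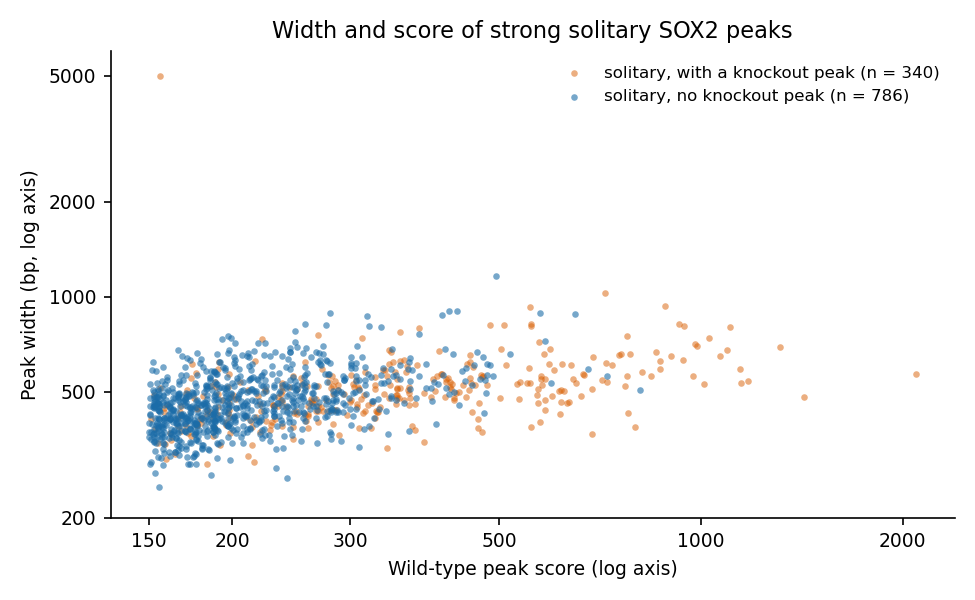
Width (bp, log axis) against wild-type score (log axis) for solitary strong SOX2 peaks, 1 point per peak, for 786 lost peaks and 340 peaks with a knockout peak. The medians of both groups rise with the score, and scores of the lost peaks end at 811.47 while those with a knockout peak reach 2097.47; the widest peak with a knockout peak is 4981 bp.

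The sites were solitary on the scale of the rule and not remote from other SOX2 peaks. The median distance to the nearest other wild-type peak was 46.5 kb (41.8 to 53.8), 213 sites had one within 20 kb, and 549 (69.8%, 66.5 to 73.0) had one within 100 kb. The other 237 sites, or 30.2% (27.0 to 33.5), stood alone over 100 kb on either side. Among the 340 solitary strong peaks with a knockout peak this share was 33.5% (28.5 to 38.8), and among weaker solitary lost peaks it was 32.9% (31.5 to 34.3), so the intervals overlapped. The most isolated sites were picked after their distances had been seen. The site chr18:27908918-27909258, with a score of 165.4, had no other wild-type peak within 3574.4 kb, and chr10:101990383-101990895, with a score of 182.98, had none within 2375 kb. The site chr3:75756298-75757201, among the widest, had none within 2278.7 kb.

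Neighbours of the sites were mostly weaker. Scores of the nearest wild-type peaks had a median of 83.94 (80.47 to 88.75), and 699 of the 786 sites scored above it, which the score limit favours. At 160 sites (20.4%, 17.6 to 23.3) the nearest wild-type peak was itself strong. It belonged to the set at 110 sites, forming 70 distinct pairs. The closest pair was chr3:38383792-38384205 with a score of 167.65 and chr3:38389571-38390043 with 237.51, separated by 5.37 kb. On chromosome 15, chr15:79919871-79920368 with a score of 174.81 lay 5.64 kb from chr15:79926011-79926386 with 366.85. On chromosome 6, chr6:113611833-113612164 with 179.82 lay 6.29 kb from chr6:113618455-113618996 with 305.73. The next pairs were chr9:69889927-69890342 and chr9:69898177-69898583, with scores of 171.27 and 158.18 and 7.83 kb between them, and chr4:141618904-141619484 and chr4:141627392-141628076, with 185.85 and 345.93 and 7.91 kb between them. These 5 pairs were chosen for their distance. On chromosome 9 both sites scored below the median of the set, and in the other pairs one site was below it and one above. Only 38 of the 786 sites had another of the set within 20 kb, and the median distance between nearest members was 746 kb.

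Whether the neighbour had a knockout peak was not part of the rule. It had one at 53 of the 786 sites, or 6.74% (5.09 to 8.73). The share was 8.24% (5.54 to 11.7) for solitary strong peaks that had a knockout peak themselves and 8.15% (7.36 to 8.99) for weaker solitary lost peaks. Where the neighbour was also strong, it had a knockout peak at 39 of 160 lost sites (24.4%, 17.9 to 31.8) and at 24 of 78 sites with a knockout peak (30.8%, 20.8 to 42.2). The intervals overlapped. Whether the state of the next peak beyond 5 kb differed between lost and still called sites was not tested.

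Among the 53 sites with such a neighbour, the lost site had the higher wild-type score in 26 and the lower in 27. The score limit applied to the lost sites and not to their neighbours, which favours a higher score at the lost site. Of the 53 neighbours, 39 were strong themselves, and at the others the lost site was the higher by the rule. The split of 26 to 27 therefore does not compare the 2 kinds of peak. In the 26, the neighbour's knockout score was between 52.77 and 105.74, with a median of 64.87. Next to the pair on chromosome 12 described above, the highest-scoring case was chr3:30153272-30153878. It scored 458.89, had no knockout peak, and lay 7.93 kb from a peak at 30144896 to 30145344 whose wild-type score was 270.93 and whose knockout score was 97.05. At chr5:72641112-72641639 the score was 456.14, while the neighbour 605 kb away scored 152.81 and had a knockout score of 75.19. At chr4:59171439-59171981 it was 367.51, close to the 349.18 of a neighbour 40 kb away that had a knockout score of 63.15. At chr1:158738335-158738868 it was 337.07, with a neighbour 10.4 kb away that scored 166.01 and had a knockout score of 83.6. These cases were named after their values were seen and were taken from the 26. There the stronger peak of the 2 in the wild type was the lost one by choice, so the mismatch describes the choice only. Knockout signal at the lost site was not measured.

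The knockout list held 887 peaks in all and was sparse around the sites, as it was around weaker solitary lost peaks. The median distance to the nearest knockout peak was 726 kb (655 to 832), beside 700 kb (664 to 733) for the weaker peaks, and 462 sites (58.8%, 55.2 to 62.2) had one within 1000 kb. A knockout peak lay within 20 kb of 26 sites, or 3.31% (2.17 to 4.81), and of 3.16% (2.66 to 3.71) of the weaker peaks. It lay within 10 kb of 6 sites. The closest was 5.29 kb away. At each of the 6 the knockout peak overlapped a wild-type peak, and such a peak had to lie more than 5 kb away under the isolation condition. The closest were at chr11:19817907-19818342, with a score of 164.58 and a knockout peak of 135.62 at 5.29 kb, and chr5:143573568-143573996, with a score of 161.3 and a knockout peak of 99.79 at the same distance. The others were chr14:51715652-51715961 with a score of 189.91, chr10:30456951-30457417 with 206.08, chr3:30153272-30153878 with 458.89 and chr7:117801959-117802431 with 170.07. At the far end, the site chr1:31006578-31007357, with a score of 248.26, was 16130.1 kb from a knockout peak, and it lay 11.9 kb from chr1:30994301-30994656, another of the set, with a score of 150.91.

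**Figure D3:**
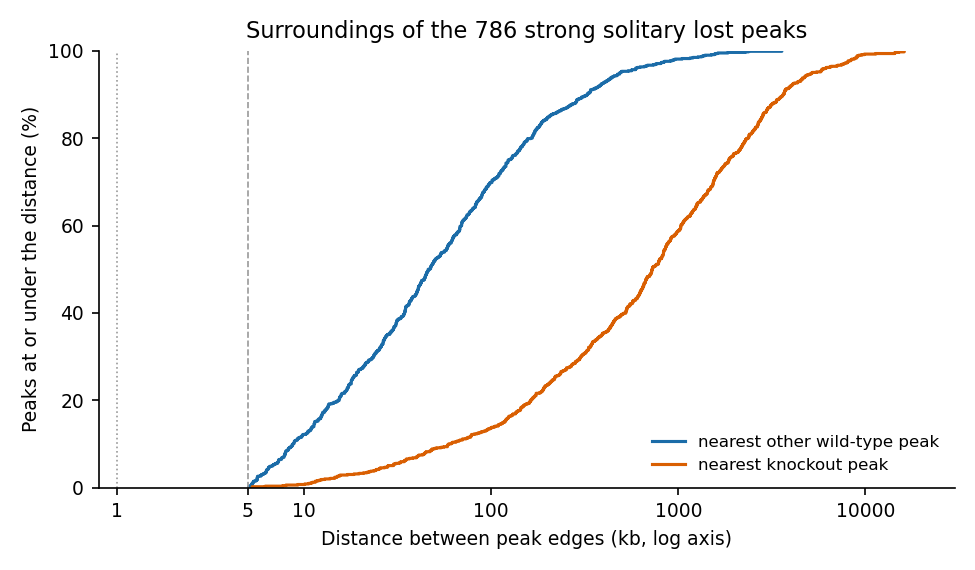
Cumulative share of the 786 solitary lost peaks (vertical axis, percent) by distance between peak edges (horizontal axis, kb, log scale) to the nearest other wild-type peak and to the nearest knockout peak. The dashed line marks the limit of 5 kb for wild-type and the dotted line that of 1 kb for knockout peaks; the median distances are 46.5 kb and 726 kb.

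The sites were spread over all 19 autosomes at similar shares of the wild-type peaks. Counts ran from 26 on chromosome 14 to 63 on chromosome 2. As a share of a chromosome's wild-type peaks they made up 8.09% (5.44 to 11.5) on chromosome 12 at the lowest and 14.5% (10.3 to 19.5) on chromosome 15 at the highest. The interval of each of the 19 autosomes held the overall 11%. Per Mb of the span covered by peaks, the density was 0.226 (exact Poisson 95% interval 0.147 to 0.330) on chromosome 14 and 0.468 (0.309 to 0.681) on chromosome 19, with a median of 0.336. Long stretches without a site also occurred. Chromosome 1 had none between 108414477 and 136453402, 28 Mb that held 65 other wild-type peaks. Chromosome 14 had a single site between 78912246 and 118873495, with gaps of 21.9 Mb and 18 Mb on its sides that held 31 and 15 wild-type peaks. Chromosome 4 had none between 11314221 and 33002854, 21.7 Mb with 22 wild-type peaks, and chromosome 5 none between 32361442 and 50682113, 18.3 Mb with 35. These 5 stretches were the longest between neighbouring sites and were picked after their lengths had been seen.

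**Figure D4:**
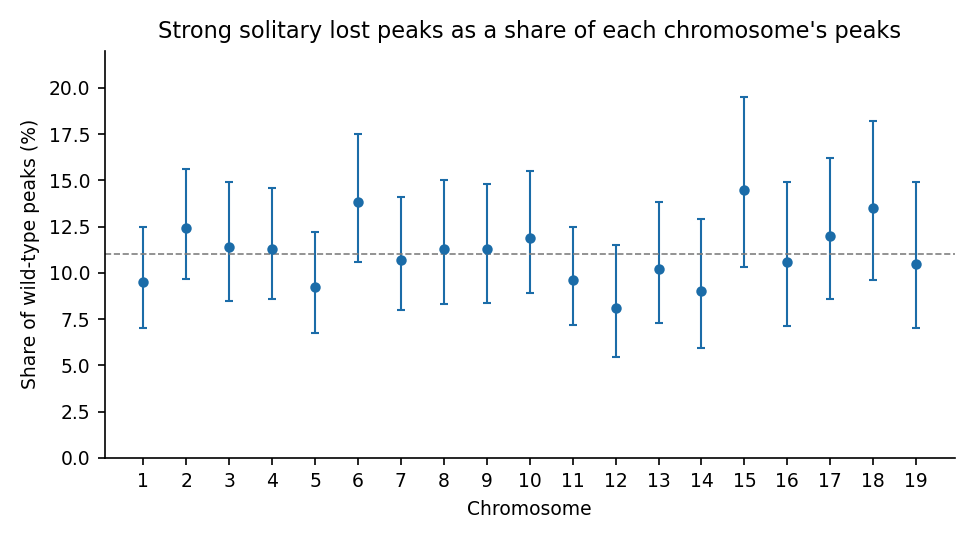
Solitary lost peaks as a percentage of the wild-type SOX2 peaks of each autosome (points) with exact 95% intervals (bars, counting error only); the dashed line is the share over all autosomes, 11%. Points lie between 8.09% on chromosome 12 and 14.5% on chromosome 15, and each interval crosses the line.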

How the data were processed

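The submitters' processing notes name Bowtie2, MACS and the build mm9. Tool versions, parameters and the control used for calling peaks were not given in the sources used here. For each ChIP library the authors deposited 1 peak list, each peak with its position and a score of unnamed scale from their peak caller. Each deposited list stands for a single library.

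Distances were counted in bases between peak edges, 0 for overlapping peaks, and a distance of exactly the limit counted as near. The choice of peaks was tested on simulated data with planted sites and checked with bedtools 2.31.1, which gave the same 786 peaks. Medians have order-statistic and shares exact Clopper-Pearson 95% intervals. Densities are per Mb between the outermost peaks of a chromosome. The software was matplotlib 3.10.9, SciPy 1.17.1, pandas 2.3.3 and NumPy 2.4.6 under Python 3.11.15.

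The members, gene and motif lists and tests were chosen with earlier results of these data known. Peaks named by rule were the 15 highest-scoring sites, the 5 lowest inside and 5 highest outside the score limit, and the 5 widest. Sequences, motifs (SOX, POU, FOX, GATA and others) and nearest genes were planned. None is reported, because no mm9 sequence or annotation was used here, and positions were not converted to GRCm38, the build of the gene table.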

Additional observations from a re-analysis of the deposited data

How the results depend on the processing

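Over 4 reported values, 24 alternatives were run, and 20 stayed close to the reported value, meaning within 1.5 times for a count and within the 95% interval for a median or share. The other 4 came from the score limit. With a limit of 100 the set held 1775 peaks with a median width of 409 bp, and with a limit of 200 it held 380 peaks with a median width of 500 bp; a lower limit admits weaker peaks, which are narrower. The number of peaks lay between 690 and 942 under the other alternatives, which set the distance to a knockout peak (overlap only, or 10 kb) and to a wild-type peak (1 kb or 10 kb), and the median width was 460 bp under each of these. Requiring only that no knockout peak overlapped added chr7:53069592-53070038, with a knockout peak 0.143 kb away, for 787 in all. Of the 15 highest-scoring sites, 12 stayed with a distance of 10 kb between wild-type peaks and 15 under each other alternative. The share of nearest wild-type peaks with a knockout peak lay between 6.03% and 7.77%; its alternatives and those for the 15 sites were added after the data had been seen. Alternatives planned for SOX motifs and gene starts were not run for want of mm9 sequence and annotation in this work. No paired analysis was possible because each genotype had 1 library, which also means that none could be left out. What an absent knockout peak shows is limited by the unknown depth.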
